A study of Mus musculus with 10 samples.

Results

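Messenger RNA of 40 ribosome biogenesis factors was examined in regenerating mouse liver. The factors came from a list of gene symbols, and all 40 were found among the 55487 gene rows of each of 2 liver count tables. By role they comprise 5 genes of RNA polymerase I transcription, 3 of the box C/D and 3 of the box H/ACA small nucleolar ribonucleoproteins (snoRNPs), 5 abundant nucleolar proteins, and 12 factors each for assembly of the small and of the large ribosomal subunit. All 40 passed the filter on low counts in both tables, and no inhibitor library held fewer than 53 counts of any of them.

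Ribosomes are made in the nucleolus, where RNA polymerase I transcribes a long ribosomal RNA (rRNA) precursor. SnoRNPs modify the precursor, and a large set of assembly factors fold it, cut it and load it with ribosomal proteins on the way to the small and the large subunit. Hepatocytes that re-enter the cell cycle after partial hepatectomy (PHx, surgical removal of most of the liver) enlarge their nucleoli and make more ribosomes, and the transcription factor MYC is known to bind many of these genes at the E-box sequence CACGTG. The libraries were made from polyT-selected RNA, so the values below are levels of the factors' messenger RNA, and rRNA output was not measured.

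All mice carried the labels C57BL/6J, male and 8 weeks old, with no engineered allele named, and all had undergone PHx. In the diet experiment, 3 libraries were of livers from mice on a high-fat diet (HFD) through the 7 days that preceded PHx and 3 of livers from chow-fed mice, both taken 40 hours after PHx. In the inhibitor experiment, 4 libraries came from mice given SSO at 40 mg/kg and 4 from mice given its solvent (vehicle), both dosed 1 day before PHx and sampled 48 hours after it. SSO is not spelled out in the labels, and the name commonly stands for sulfosuccinimidyl oleate, which blocks fatty acid uptake through CD36. Each library is whole liver at 1 time point, no sham-operated liver is compared here, and nothing ties the 4 inhibitor columns of a group to separate animals among the 8 mice labelled per group, so the p-values there reflect library-to-library spread, which may be technical.

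Diet libraries held 31.9 to 39.9 M counts each, and inhibitor libraries 25.2 to 30.4 M. The 10 hepatocyte markers summed to at least 81657 CPM (counts per M counts of a library) in every library. The male label held for the diet libraries, where the Y-linked gene Ddx3y reached 55.0 to 76.3 CPM, but not for the inhibitor libraries, where Xist stood at 698 to 1772 CPM and 4 Y-linked genes had 0 counts in all 8. Vehicle libraries stood apart from each other: vehicle 1 and vehicle 3 were highest in most of the factors and in markers of monocytes and neutrophils, and mitochondrially encoded transcripts took 22.5% of the counts in vehicle 2, against 4.99% to 11.5% in the other vehicle libraries and 15.2% to 17.6% in SSO libraries. Results of the inhibitor experiment are therefore given with and without those libraries.

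Promoters of 35 of the 40 factors were matched in RefSeq (GRCm38.p6), as 44 windows of 250 bases before to 50 bases after a start of the gene, since some genes have several starts. The E-box CACGTG, which reads the same on both strands, was present in a window of 9 of the 35 genes (25.7%), against 6 of 60 cytosolic ribosomal protein genes (10%) and 2187 of all 27025 genes (8.09%). By window the counts were 9 of 44 (20.5%), 8 of 71 (11.3%) and 2349 of 32851 (7.15%). The 10 matches are shown so that the shared site can be read in each gene. Each is given on the strand of its gene, with the E-box in capitals. A match is a stretch of letters and does not show binding.
Rrn3, far site (chr16:13780472-13780501, plus strand): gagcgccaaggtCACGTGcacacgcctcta
Rrn3, near site (chr16:13780639-13780668, plus strand): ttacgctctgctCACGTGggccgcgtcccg
Mybbp1a (chr11:72441347-72441376, plus strand): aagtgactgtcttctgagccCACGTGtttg
Utp20 (chr10:88826765-88826794, minus strand): cccagcggcactaactaCACGTGaggaaaa
Utp4 (chr8:106893643-106893672, plus strand): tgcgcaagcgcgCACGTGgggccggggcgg
Wdr43 (chr17:71616220-71616249, plus strand): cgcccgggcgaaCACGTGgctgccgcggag
Tsr1 (chr11:74898092-74898121, plus strand): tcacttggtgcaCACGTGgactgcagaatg
Ltv1 (chr10:13193092-13193121, minus strand): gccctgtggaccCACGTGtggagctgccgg
Nop2 (chr6:125131811-125131840, plus strand): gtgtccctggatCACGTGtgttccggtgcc
Pes1 (chr11:3963965-3963994, plus strand): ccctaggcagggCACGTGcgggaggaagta

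The sites lie at different distances from the RefSeq start on which each window was set, which need not be the outermost annotated start of the gene. Counted in bases from that start, with negative numbers before it, they begin at -215 and -48 in Rrn3 and at -60 in Nop2, whereas in Pes1, Utp4, Wdr43, Tsr1, Ltv1, Utp20 and Mybbp1a they begin 3 to 41 bases after it. No window was matched for Fbl, Npm1, Rrp12, Bop1 and Rrs1.

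The first question is whether a week of high-fat feeding alters these genes in the regenerating remnant. None of the 40 was called between HFD and chow livers by edgeR's quasi-likelihood test at a Benjamini-Hochberg adjusted p under 0.05, while 2.32% of all 15589 genes tested were (1.6% higher and 0.718% lower in HFD livers). DESeq2 and limma-voom also called 0 of the 40, against 5.94% and 2.39% of all genes. At an unadjusted p under 0.05 there was 1 factor, Rrs1, lower in HFD livers, against 15% of all genes (7.52% higher and 7.47% lower). The median log2 fold change of the 40 was -0.00048 and that of all genes -0.02, with 20 factors (50%) below 0, against 52.7% of all genes.

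The fitted log2 fold changes lay between -0.40 and 0.26, and 34 of 40 were within 0.2 of 0. All 40 of the 95% intervals lay within 1 log2 unit of 0, and 27 within 0.5, so a change of 1 log2 unit in either direction lies outside every interval. In 29 of 40 factors the HFD mean lay inside the range of the chow libraries. HFD and chow libraries did not overlap in 4 factors, namely Ubtf (higher in HFD) and Ltv1, Rrs1 and Rrp1b (lower in HFD), against 11.2% of all genes higher and 10.8% lower.

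**Figure D1:**
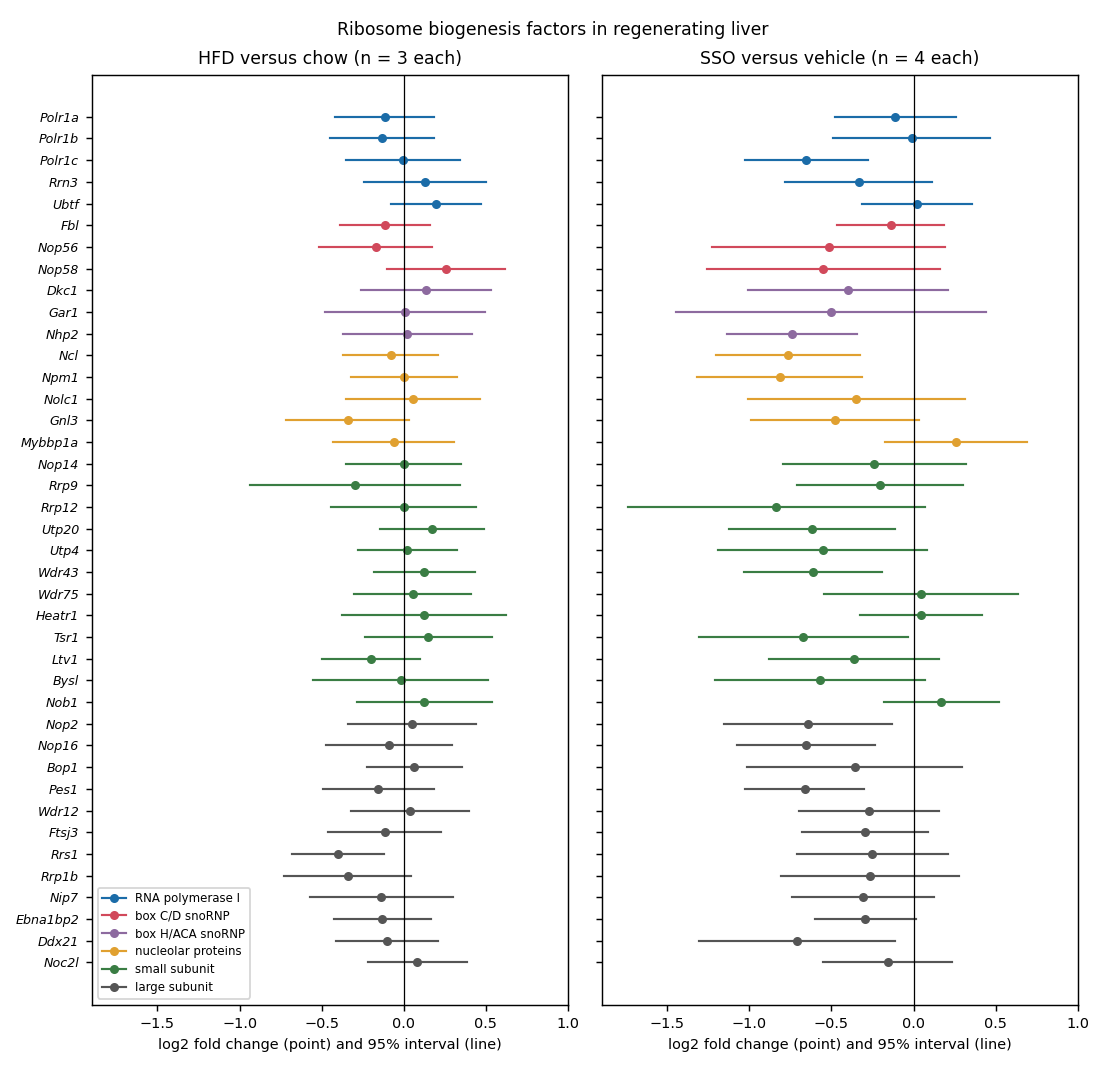
Log2 fold changes of the 40 factors, HFD over chow on the left and SSO over vehicle on the right, ordered and coloured by role; points are edgeR estimates and lines their 95% intervals. Diet estimates lie between -0.40 and 0.26, and inhibitor estimates between -0.84 and 0.26 with 35 of 40 below 0.

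No gene of polymerase I transcription was called by diet. Ubtf, which binds the rRNA gene promoter and keeps it open, had 73.6, 71.9 and 67.5 CPM in HFD livers, against 56.9, 66.4 and 62.6 CPM in chow livers. The HFD libraries all stood above the chow libraries, yet the fitted difference of 0.20 ± 0.12 (log2, SE) had an adjusted p of 0.5 in edgeR's test. Rrn3, the initiation factor that brings the polymerase to that promoter, had 30.8, 20.2 and 25.2 CPM in HFD livers, against 24.1, 23.96 and 21.7 CPM in chow livers, with the groups overlapping. Polr1a, the largest catalytic subunit, had 28.98, 26.4 and 23.7 CPM in HFD livers, against 25.8, 28.5 and 31.3 CPM in chow livers. Its partner in the active site, Polr1b, had 23.9, 21.8 and 23.2 CPM in HFD livers, against 22.2, 24.1 and 29.4 CPM in chow livers. In both subunits chow 3 was the highest library and the remaining values overlapped.

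HFD and chow libraries overlapped in all 6 snoRNP proteins. Fbl, the methyltransferase of the box C/D particles, had 29.7, 29.1 and 28.5 CPM in HFD livers, against 34.6, 31.4 and 28.5 CPM in chow livers. Its scaffold partner Nop56 had 31.3, 26.2 and 31.6 CPM in HFD livers, against 39.8, 29.2 and 31.3 CPM in chow livers, where chow 1 alone was high. Nop58, the other scaffold protein, had 32.6, 26.7 and 32.5 CPM in HFD livers, against 30.6, 21.6 and 24.7 CPM in chow livers, the highest log2 fold change of the 40 at 0.26 ± 0.16 with an adjusted p of 0.507 in edgeR's test. Chow 1 lay above HFD 2, so the groups overlapped. Dkc1, the pseudouridine synthase of the box H/ACA particles, had 13.3, 15.5 and 13.3 CPM in HFD livers, against 14.6, 13.6 and 10.1 CPM in chow livers, with chow 3 the lowest. Gar1 and Nhp2, core proteins of the same particles, differed by 0.01 ± 0.22 and 0.02 ± 0.17 on the log2 scale. Gar1, the lower of these, had 7.06, 5.89 and 5.88 CPM in HFD livers, against 7.14, 4.97 and 6.64 CPM in chow livers.

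Among the nucleolar proteins, Ncl (nucleolin, which acts in rRNA transcription and early processing) had 112, 114 and 130.4 CPM in HFD livers, against 119, 133 and 126 CPM in chow livers. Npm1 (nucleophosmin, a histone and assembly chaperone) had 67.5, 64.3 and 81.8 CPM in HFD livers, against 72.4, 77.9 and 63.1 CPM in chow livers. The groups overlapped in both, and their log2 fold changes were -0.08 ± 0.13 and 0.00 ± 0.14. Gnl3 (nucleostemin, a nucleolar GTPase) was the lowest of this group at -0.34 ± 0.17, with 32.2, 25.3 and 30.7 CPM in HFD livers, against 45.02, 31.1 and 35.6 CPM in chow livers. HFD 1 lay above chow 2, and the adjusted p was 0.387 in edgeR's test. Nolc1, a chaperone of snoRNPs, was the highest of the group at 0.06 ± 0.18, with 45.9, 33.3 and 43.2 CPM in HFD livers, against 41.9, 30.8 and 44.96 CPM in chow livers.

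Of the 12 small-subunit factors, 8 lay above 0 and 4 below, from -0.30 ± 0.28 for Rrp9, a protein of the snoRNP needed for early cleavage, to 0.17 ± 0.14 for Utp20, a component of the early processome. Rrp9 had 13.4, 8.46 and 7.50 CPM in HFD livers, against 15.1, 8.34 and 12.7 CPM in chow livers, where HFD 1, chow 1 and chow 3 were high and the groups overlapped. Utp20 had 27.6, 26.2 and 21.8 CPM in HFD livers, against 23.8, 20.2 and 23.1 CPM in chow livers, with HFD 3 among the chow values. Of the 12 large-subunit factors, 8 lay below 0. Bop1, Pes1 and Wdr12, which form a complex needed for large-subunit rRNA maturation, differed by 0.06 ± 0.13, -0.16 ± 0.15 and 0.04 ± 0.16 on the log2 scale, all with overlapping groups.

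By library, Bop1 had 37.7, 33.5 and 32.6 CPM in HFD livers, against 31.1, 31.5 and 36.9 CPM in chow livers. Pes1 had 29.1, 23.7 and 24.8 CPM in HFD livers, against 28.98, 24.5 and 32.98 CPM in chow livers. Wdr12 had 22.1, 16.7 and 16.5 CPM in HFD livers, against 19.6, 16.5 and 17.8 CPM in chow livers. Libraries HFD 1 and chow 3 were the highest for Bop1, HFD 1, chow 1 and chow 3 for Pes1, and HFD 1 and chow 1 for Wdr12.

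Rrs1, which helps to dock the RNA and proteins of the central protuberance into the large subunit, gave the lowest estimate by diet. It had 27.4, 26.7 and 26.9 CPM in HFD livers, against 38.3, 31.3 and 37.2 CPM in chow livers. All HFD libraries lay below all chow libraries, at 27.01 ± 0.383 and 35.6 ± 3.76 CPM (SD, n = 3 each). The log2 fold change was -0.40 ± 0.12, with an unadjusted p of 0.0105 and an adjusted p of 0.163 in edgeR's test, so it was not called. Noc2l, linked to export of large-subunit precursors in yeast, was the highest of its group at 0.08 ± 0.13. It had 35.04, 29.5 and 32.4 CPM in HFD livers, against 33.99, 30.2 and 27.3 CPM in chow livers, with the groups overlapping, and 20.9% of its exon length lies opposite exons of Samd11 and counting by strand is not stated.

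Ltv1 and Rrp1b, named here after their values were seen, also had all HFD libraries below all chow libraries. Ltv1, a factor of late small-subunit precursors, had 15.1, 12.9 and 14.8 CPM in HFD livers, against 16.1, 16.6 and 16.4 CPM in chow livers. Rrp1b, a nucleolar protein, had 9.62, 8.73 and 10.4 CPM in HFD livers, against 11.9, 14.1 and 10.5 CPM in chow livers. The gap between HFD 3 and chow 3 was narrow in Rrp1b. Log2 fold changes were -0.20 ± 0.13 and -0.34 ± 0.17, with adjusted p-values of 0.533 and 0.404 in edgeR's test. Heatr1, a small-subunit factor that also acts in rRNA transcription and was likewise chosen after its values were seen, had 33.3, 28.4 and 30.1 CPM in HFD livers, against 21.7, 23.6 and 39.2 CPM in chow livers. The chow libraries of Heatr1 reached both below and above all HFD libraries.

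Cell cycle genes differed more in the same libraries. Of 22 mitosis genes, 20 were called higher in HFD livers by edgeR's test, with a median log2 fold change of 3.14. The smallest p was that of Ccna2 (cyclin A2), at 42.8 ± 5.89 CPM in HFD and 4.74 ± 1.09 CPM in chow livers (SD, n = 3 each). Of 28 tested S phase genes 1, Tyms, was called higher at a log2 fold change of 1.30 ± 0.27, and the median was 0.51. The mean log2 level of the S phase genes was 3.77, 3.93 and 4.10 in HFD livers, against 3.74, 3.87 and 2.08 in chow livers, so chow 3 alone was low. None of 81 cytosolic ribosomal protein genes was called, but 79 lay below 0, against 52.7% of all genes, with a median of -0.22. In 37 the HFD libraries lay entirely below chow, against 10.8% of all genes. With scaling by library size alone the ribosomal protein median was -0.06 and 66 lay below 0, while the median of all genes moved to 0.13 and that of the 40 factors to 0.16. Relative to all genes the factors then stood at 0.02, as they did with trimmed-mean (TMM) scaling. The ribosomal protein median was below that of all genes in both, at -0.22 against -0.02 with TMM and -0.06 against 0.13 with library size. No marker of another cell type was called by diet. Summed levels of Kupffer cell markers were 151 to 278 CPM in HFD and 83.5 to 204 CPM in chow livers, and those of erythroid markers were 182 to 291 CPM in HFD and 297 to 540 CPM in chow livers. Of 5 tested erythroid markers 4 were lower in HFD livers at an unadjusted p under 0.05, against 7.47% of all genes, with a list median of -1.03. Among 5 cholangiocyte markers Sox9 and Spp1 were higher at that p, against 7.52% of all genes, at 0.76 ± 0.20 and 0.65 ± 0.18. Krt19, Krt7 and Epcam had negative estimates, and the list median was -0.31. The part of these cells in the diet values was not tested.

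In the MYC network, Mxd3, which pairs with MAX in place of MYC, was called higher in HFD livers. It averaged 5.10 ± 1.48 CPM in HFD and 0.551 ± 0.345 CPM in chow livers (SD, n = 3 each), a log2 fold change of 3.19 ± 0.45 with an adjusted p of 0.00989 in edgeR's test. Myc had 4.30, 5.56 and 5.02 CPM in HFD livers, against 22.5, 7.90 and 5.84 CPM in chow livers. The HFD libraries were all below the chow libraries, with chow 1 far above the others, and the difference of -1.29 ± 0.49 (log2, SE) was not called (adjusted p = 0.282 in edgeR's test). The other 10 genes of that network were not called, at log2 fold changes of -0.48 for Mnt to 1.17 for Mycn. Among genes of the pathway outside the 40, 0 of 11 polymerase I genes, 0 of 39 small-subunit, 0 of 44 large-subunit and 0 of 11 snoRNP assembly genes were called by diet, with medians of 0.21, 0.06, 0.0017 and 0.04.

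**Figure D2:**
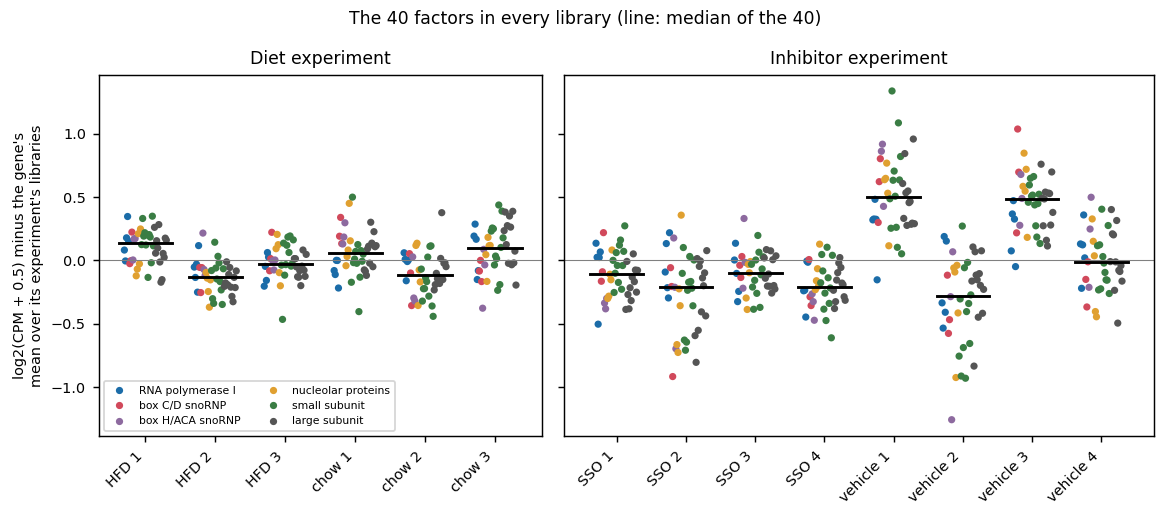
Each point is 1 factor in 1 library, as its log2(CPM + 0.5) minus that gene's mean over the libraries of its experiment; colours give roles and black lines the median of the 40. Medians run from -0.13 to 0.14 in the diet libraries, and in the inhibitor experiment vehicle 1 and vehicle 3 stand at 0.50 and 0.49 above all others.

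The other question is whether SSO alters the same genes. None of the 40 was called between SSO and vehicle livers by edgeR's quasi-likelihood test, against 0.45% of all 15788 genes (0.317% higher and 0.133% lower in SSO livers). At an unadjusted p under 0.05 there were 11 factors, all lower in SSO livers (27.5%), where 12.5% of all genes were lower, 7.96% higher and 20.5% either. DESeq2 called 6 of the 40 lower (15%), against 4.79% of all genes called lower and 7.71% in either direction by DESeq2, and limma-voom called 0, against 0.431% of all genes. Of the 40, 35 lay below 0 (87.5%), against 53% of all genes, and their median log2 fold change was -0.36, against -0.04. In 8 factors (20%) every SSO library lay below every vehicle library, against 5.62% of all genes, and in none above, against 6.14%. With scaling by library size alone the median of all genes moved to -0.20 and that of the 40 to -0.59, and 39 lay below 0. The share of all genes below 0 was computed for the main fit only, so that count has none beside it. The 40 were chosen with earlier results of these data known, so these shares describe the list and are no independent test.

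**Figure D3:**
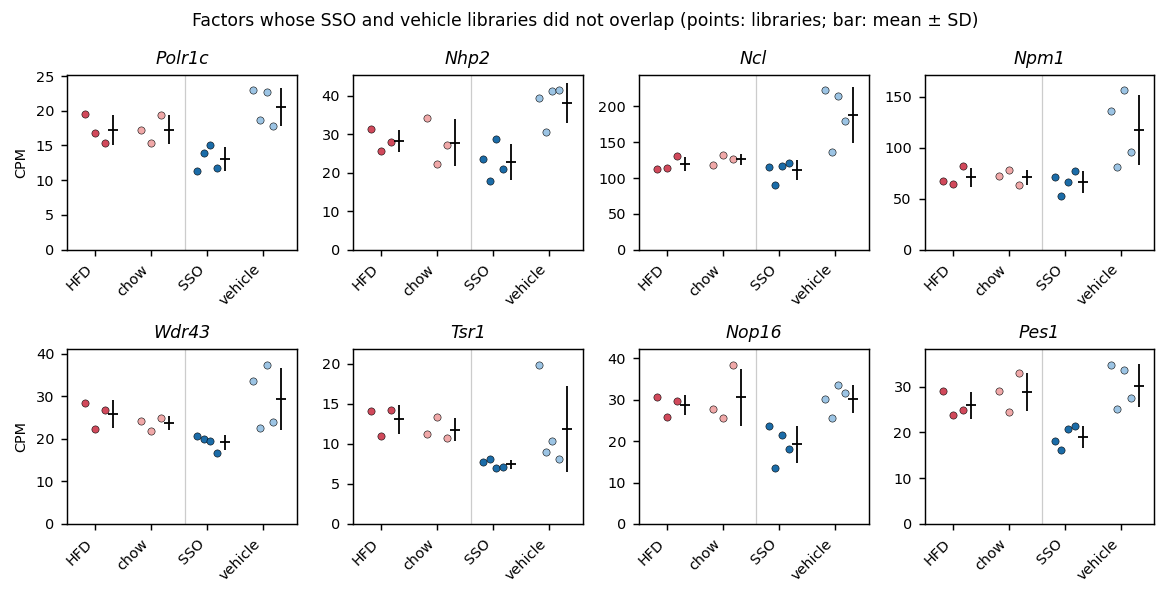
Levels in CPM of the 8 factors whose SSO and vehicle libraries did not overlap; points are libraries, and bars mean ± SD with n = 3 for HFD and chow and n = 4 for SSO and vehicle. The diet and inhibitor tables were scaled separately, so levels are compared within an experiment; for Ncl the SSO libraries reach 122 CPM and the lowest vehicle library is 137 CPM.

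The most abundant of these were the nucleolar proteins. Ncl (ENSMUSG00000026234, chromosome 1, 86344719 to 86359400 on GRCm38) had 116, 89.9, 116 and 122 CPM in SSO livers, against 222, 137, 214 and 179 CPM in vehicle livers. All SSO libraries lay below vehicle 2, the lowest vehicle library, and means were 111 ± 14.2 and 188 ± 38.95 CPM (SD, n = 4 each). The log2 fold change was -0.76 ± 0.20 (95% interval -1.20 to -0.33), with an adjusted p of 0.111 in edgeR's test. Npm1 (ENSMUSG00000057113, chromosome 11, 33152287 to 33163206) had 71.2, 52.2, 66.2 and 77.5 CPM in SSO livers, against 136, 81.3, 156 and 96.3 CPM in vehicle livers. Again no SSO library reached the lowest vehicle library, and the log2 fold change was -0.82 ± 0.23 with an adjusted p of 0.113 in the same test. Npm1 has processed pseudogenes, and how reads that map to several places were counted is not given in the sources used here, so its level is uncertain. Mybbp1a, a nucleolar protein that binds MYB and acts in rRNA processing, had the highest estimate of the 40 at 0.26 ± 0.19. It had 132, 160.3, 124 and 137 CPM in SSO livers, against 136, 93.7, 142 and 91.7 CPM in vehicle livers, so vehicle 2 and vehicle 4 were low and vehicle 1 and vehicle 3 lay among the SSO values.

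Nolc1 had 30.2, 27.8, 31.9 and 31.1 CPM in SSO livers, against 55.8, 16.9, 47.8 and 33.4 CPM in vehicle livers, with vehicle 2 the lowest and vehicle 1 the highest of all 8 libraries. Gnl3 had 25.7, 22.2, 26.7 and 24.8 CPM in SSO livers, against 41.6, 27.9, 47.5 and 21.5 CPM in vehicle livers, where vehicle 4 was the lowest library. Neither separated the groups, and their log2 fold changes of -0.35 ± 0.30 and -0.48 ± 0.23 had adjusted p-values of 0.527 and 0.272 in edgeR's test.

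Among the polymerase I genes, Polr1c, a subunit shared with RNA polymerase III, had 11.3, 13.9, 15.1 and 11.8 CPM in SSO livers, against 22.9, 18.6, 22.8 and 17.8 CPM in vehicle livers. The 4 SSO libraries were the 4 lowest, with a log2 fold change of -0.65 ± 0.17 and an adjusted p of 0.111 in edgeR's test. The catalytic subunits overlapped between groups. Polr1a had 34.5, 29.4, 31.4 and 26.5 CPM in SSO livers, against 39.2, 24.7, 33.04 and 34.3 CPM in vehicle livers. Polr1b had 23.8, 25.7, 25.7 and 19.8 CPM in SSO livers, against 29.4, 15.98, 30.3 and 19.98 CPM in vehicle livers. Vehicle 2 was the lowest library of both, and their log2 fold changes were -0.11 ± 0.17 and -0.01 ± 0.22.

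Rrn3 had 18.6, 14.8, 14.5 and 18.2 CPM in SSO livers, against 23.1, 13.7, 23.1 and 23.6 CPM in vehicle livers. Vehicle 1, 3 and 4 stood above all SSO libraries and vehicle 2 below them, and the log2 fold change was -0.33 ± 0.20. Ubtf had 78.9, 87.7, 63.5 and 74.5 CPM in SSO livers, against 67.6, 83.7, 72.8 and 76.3 CPM in vehicle livers, with the highest value in SSO 2 and a log2 fold change of 0.02 ± 0.15. Its 95% interval ran from -0.32 to 0.35.

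Of the snoRNP proteins, Nhp2 (ENSMUSG00000001056, chromosome 11, 51619735 to 51623714) had 23.6, 17.8, 28.8 and 20.8 CPM in SSO livers, against 39.3, 30.5, 41.1 and 41.3 CPM in vehicle livers. SSO 3 came nearest to vehicle 2 without reaching it, and the log2 fold change was -0.74 ± 0.18 with an adjusted p of 0.106 in edgeR's test. Dkc1 had 9.36, 13.6, 10.2 and 9.87 CPM in SSO livers, against 22.1, 9.71, 14.6 and 10.2 CPM in vehicle livers, where vehicle 1 was high and vehicle 2 and vehicle 4 lay among the SSO values. Gar1 had 4.83, 5.50, 8.24 and 5.04 CPM in SSO livers, against 12.6, 2.41, 10.6 and 7.75 CPM in vehicle livers, a range of 5.24-fold within the vehicle group. Vehicle 2 was the lowest and vehicle 1 the highest of all 8, and the log2 fold change of -0.50 ± 0.43 had a 95% interval of -1.45 to 0.44.

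The box C/D proteins did not separate the groups. Fbl had 34.8, 37.6, 38.1 and 39.3 CPM in SSO livers, against 48.3, 36.04, 45.6 and 35.2 CPM in vehicle livers. Nop56 had 35.6, 32.8, 34.4 and 30.9 CPM in SSO livers, against 58.5, 25.2, 78.2 and 29.2 CPM in vehicle livers. Nop58 had 29.2, 13.03, 25.6 and 19.5 CPM in SSO livers, against 44.1, 17.97, 40.9 and 24.9 CPM in vehicle livers. In all 3, vehicle 1 and vehicle 3 were the highest libraries, while vehicle 2 and vehicle 4 were within or below the SSO range. Log2 fold changes were -0.14 ± 0.15, -0.52 ± 0.32 and -0.55 ± 0.32. Small nucleolar RNA genes overlap the exons annotated for Nop56, Nop58, Ncl and Gnl3, and how reads there were assigned is not stated.

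Small-subunit factors ranged from -0.84 ± 0.41 for Rrp12, which acts in export of subunit precursors in yeast, to 0.17 ± 0.16 for Nob1, the nuclease that makes the final cut of small-subunit rRNA. Rrp12 had 9.14, 6.19, 7.42 and 9.26 CPM in SSO livers, against 25.6, 4.99, 15.7 and 10.8 CPM in vehicle livers. Vehicle 1 was the highest and vehicle 2 the lowest of all 8 libraries, and the 95% interval of -1.74 to 0.07 included 0. Nob1 had 23.4, 19.3, 19.7 and 19.8 CPM in SSO livers, against 20.02, 15.9, 21.2 and 16.01 CPM in vehicle livers, with the groups overlapping. Utp20 had 19.9, 11.5, 17.04 and 14.5 CPM in SSO livers, against 29.8, 23.1, 27.3 and 16.2 CPM in vehicle livers, where vehicle 4 lay among the SSO libraries. Its log2 fold change was -0.62 ± 0.23 with an adjusted p of 0.174 in edgeR's test.

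Wdr43 and Tsr1, named here after their values were seen, were the small-subunit factors whose groups did not overlap. Wdr43, a subunit of the first complex to join the precursor, had 20.7, 19.8, 19.5 and 16.7 CPM in SSO livers, against 33.5, 22.5, 37.4 and 23.96 CPM in vehicle livers. The gap between SSO 1 and vehicle 2 was small, and the log2 fold change was -0.61 ± 0.19 with an adjusted p of 0.132 in edgeR's test. Tsr1, a late factor of small-subunit precursors, had 7.69, 8.05, 6.92 and 7.08 CPM in SSO livers, against 19.9, 8.99, 10.4 and 8.12 CPM in vehicle livers. Vehicle 1 was far above the others and vehicle 4 barely above SSO 2, and 32.3% of the gene's exon length lies opposite exons of Srr, which makes its level uncertain. Wdr75, Heatr1 and Nob1 were the 3 factors of this group with estimates above 0.

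Vehicle 2 was the lowest of the 8 libraries in 9 of the 12 small-subunit factors, and the share of all genes lowest there was not computed. Of these factors 4, Utp4, Bysl, Wdr75 and Heatr1, are given here, chosen after their values were seen. Utp4, which sits in the same early complex as Wdr43, had 14.9, 9.65, 15.4 and 12.8 CPM in SSO livers, against 25.4, 9.35, 22.2 and 20.5 CPM in vehicle livers. Bysl (bystin), which binds small-subunit precursors, had 20.6, 15.2, 18.7 and 12.7 CPM in SSO livers, against 34.98, 12.3, 28.4 and 23.8 CPM in vehicle livers. Of the exon length of Bysl, 9.37% lies opposite exons of Ccnd3, which makes its level uncertain. In Utp4 and Bysl, the other vehicle libraries lay above every SSO library, with log2 fold changes of -0.55 ± 0.29 and -0.57 ± 0.29. Wdr75, also of the early complex, had 16.6, 13.5, 17.5 and 16.4 CPM in SSO livers, against 18.4, 7.76, 20.8 and 15.01 CPM in vehicle livers. Heatr1 had 32.5, 29.6, 30.3 and 26.3 CPM in SSO livers, against 31.2, 21.8, 35.1 and 27.1 CPM in vehicle livers. These overlapped widely, at 0.05 ± 0.27 and 0.04 ± 0.17. The factors not given by library under SSO (Nop14, Rrp9, Ltv1, Ftsj3, Rrp1b, Nip7 and Ebna1bp2) had log2 fold changes between -0.36 ± 0.23 for Ltv1 and -0.20 ± 0.23 for Rrp9, all with an unadjusted p above 0.05.

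All 12 large-subunit factors lay below 0, from -0.71 ± 0.27 for Ddx21, an RNA helicase, to -0.16 ± 0.18 for Noc2l. Pes1 (ENSMUSG00000020430, chromosome 11, 3963975 to 3980004) had 18.2, 16.1, 20.7 and 21.4 CPM in SSO livers, against 34.8, 25.1, 33.6 and 27.5 CPM in vehicle livers. No SSO library reached vehicle 2, and the log2 fold change was -0.66 ± 0.16 with an adjusted p of 0.106 in edgeR's test. Its complex partners overlapped between groups. Bop1 had 20.2, 24.8, 26.03 and 19.5 CPM in SSO livers, against 44.4, 13.5, 29.7 and 28.4 CPM in vehicle livers. Wdr12 had 14.7, 16.6, 15.9 and 16.1 CPM in SSO livers, against 20.9, 15.8, 25.2 and 14.5 CPM in vehicle livers. Vehicle 2 was the lowest library for Bop1 and vehicle 4 for Wdr12, and their log2 fold changes were -0.36 ± 0.29 and -0.27 ± 0.19.

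Ddx21 had 29.5, 25.8, 29.98 and 28.7 CPM in SSO livers, against 68.7, 26.2, 57.3 and 34.1 CPM in vehicle livers. Vehicle 1 and vehicle 3 stood well above the rest, and vehicle 2 lay among the SSO values. Nop16, a nucleolar assembly factor named here after its values were seen, had 23.7, 13.4, 21.6 and 18.2 CPM in SSO livers, against 30.1, 25.7, 33.7 and 31.6 CPM in vehicle livers. SSO and vehicle did not overlap, with a log2 fold change of -0.66 ± 0.19 and an adjusted p of 0.121 in edgeR's test. Nop2, an rRNA methyltransferase also chosen after its values were seen, had 20.9, 18.1, 27.9 and 23.3 CPM in SSO livers, against 42.1, 24.5, 46.9 and 27.3 CPM in vehicle livers, where SSO 3 lay above vehicle 2 and vehicle 4. Rrs1, the lowest factor by diet, had 21.5, 17.7, 24.96 and 24.03 CPM in SSO livers, against 32.6, 17.2, 25.6 and 29.5 CPM in vehicle livers. Noc2l had 37.4, 41.7, 40.5 and 31.6 CPM in SSO livers, against 48.4, 33.6, 51.5 and 35.2 CPM in vehicle livers. Both overlapped between groups, and Rrs1 differed by -0.25 ± 0.21 on the log2 scale.

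The vehicle libraries differed from each other more than the SSO libraries did. Vehicle 1 and vehicle 3 were the 2 highest of all 8 libraries in 31 of 40 factors. Vehicle 1 lay above every SSO library in 36 factors, vehicle 3 in 36, vehicle 4 in 17 and vehicle 2 in 11, and vehicle 2 lay below every SSO library in 18. Such counts were not made over all genes, so they do not show whether the pattern is particular to the 40. The mean log2 level of the 40 was 4.52, 4.38, 4.54 and 4.44 in SSO 1 to 4, against 5.15, 4.32, 5.09 and 4.63 in vehicle 1 to 4. The SD of a factor between libraries had a median of 0.175 (log2) in SSO and 0.411 in vehicle livers, against 0.230 and 0.413 over all genes. In the diet experiment it was 0.148 in HFD and 0.195 in chow livers.

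S phase genes and markers of monocytes and neutrophils were also highest in vehicle 1 and vehicle 3. The 28 tested S phase genes had mean log2 levels of 2.32 to 2.63 in SSO livers, against 4.20, 2.65, 4.12 and 3.43 in vehicle 1 to 4, and the 22 mitosis genes had 1.59 to 1.90 in SSO livers, against 3.10, 1.85, 3.31 and 3.45. Of the mitosis genes 21 were lower in SSO livers at an unadjusted p under 0.05, against 12.5% of all genes. Cdk1, the kinase that drives entry into mitosis, was called lower by edgeR's test at a log2 fold change of -2.23 ± 0.38. The 8 markers of monocytes and neutrophils summed to 15.7 to 31.1 CPM in SSO livers, against 297, 32.1, 351 and 56.0 CPM in vehicle 1 to 4. None of these 8 was called by edgeR's test or at 0 in all libraries, and Retnlg had 0 counts in vehicle 2. Sums for 6 stellate cell markers were 164 to 260.3 CPM in SSO livers, against 600.0, 153, 545 and 239 CPM in vehicle 1 to 4, and those for 6 Kupffer cell markers were 163 to 288 CPM in SSO livers, against 412, 95.2, 311 and 83.9 CPM. Cholangiocyte marker sums were 33.1 to 43.2 CPM in SSO livers, against 134, 44.3, 163 and 41.2 CPM in vehicle 1 to 4, most of it Spp1. Of the 5 markers 4 lay below 0 and 1 above, at a log2 fold change of 1.15. In that 1 every SSO library lay above every vehicle library, against 6.14% of all genes. Erythroid sums were 49.4 to 103 CPM in SSO livers, against 52.5, 197, 76.1 and 95.4 CPM in vehicle 1 to 4, highest in vehicle 2. Endothelial sums overlapped, at 103 to 181 CPM in SSO and 99.5 to 217 CPM in vehicle livers. The part of these cells in the result was not tested, and in whole liver fewer cells of a type and less RNA per cell cannot be told apart. Hepatocyte marker sums overlapped, at 81657 to 106270.0 CPM in SSO and 85869 to 127630.0 CPM in vehicle livers.

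**Figure D4:**
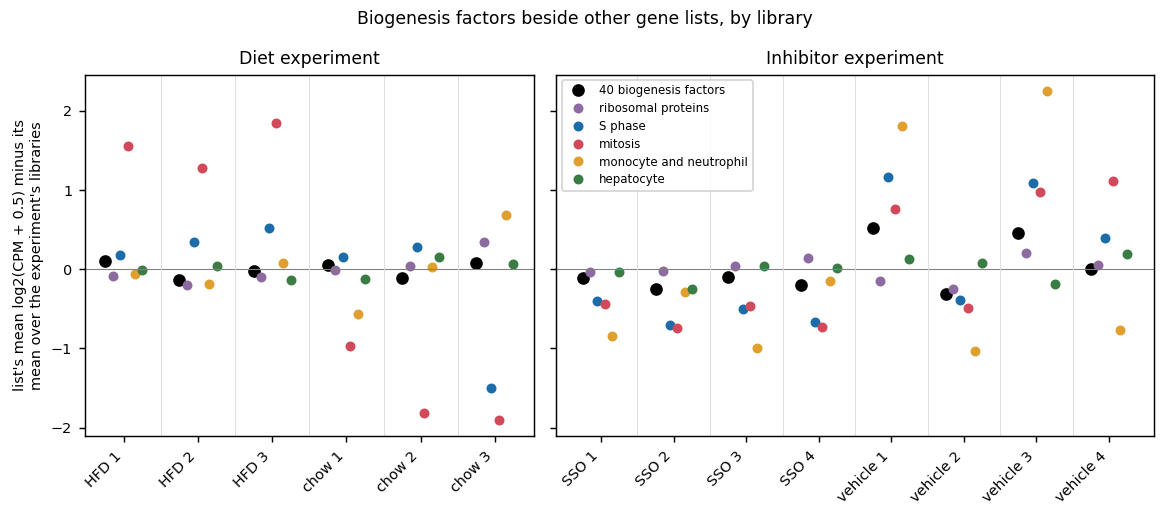
Mean log2(CPM + 0.5) of each gene list in each library, minus the list's mean over that experiment's libraries; black points are the 40 factors. In the inhibitor experiment the factors, S phase genes and monocyte and neutrophil markers are all highest in vehicle 1 and vehicle 3, and in the diet experiment mitosis genes separate HFD from chow while the factors do not.

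Leaving out vehicle libraries moved the result in opposite directions. Each library was left out in turn, and the fit without vehicle 2 was the only such fit with a factor called. Without vehicle 2, the library with 22.5% mitochondrial counts, the median of the 40 was -0.55, against -0.03 over all genes. Of the 40, 37 lay below 0, and 26 were lower at an unadjusted p under 0.05, against 19% of all genes. By edgeR's test 13 were called lower in SSO livers, against 9.23% of all genes called lower and 16.2% in either direction. The 13 were Ncl, Npm1, Nolc1, Nhp2, Polr1c, Rrp12, Utp4, Wdr43, Bysl, Nop2, Nop16, Pes1 and Ddx21. They include 7 of the 8 whose groups did not overlap when all libraries were used. The fits share every library but vehicle 2, so this overlap is not independent support. Npm1 then fell by 0.96 and Ncl by 0.89 on the log2 scale, with adjusted p-values of 0.0128 and 0.0102 in edgeR's test. The remaining vehicle libraries lay above every SSO library in 17 factors (42.5%), against 14.9% of all genes. Leaving out vehicle 1 alone or vehicle 3 alone gave medians of -0.24 and -0.27. At an unadjusted p under 0.05, 8 factors were lower in each case, against 7.35% and 9.17% of all genes. None was called, against 0% and 0.0991% of all genes. Without vehicle 4 alone the median was -0.44, 35 factors lay below 0 and none was called, against 2.24% of all genes.

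Without vehicle 1 and vehicle 3, an alternative chosen after seeing the data, the median of the 40 was 0.01 and 18 of 40 lay below 0. None of the 40 was called by edgeR's test, against 0.371% of all genes. Both remaining vehicle libraries lay above every SSO library in 8 factors (20%) and below in 3, against 11.4% and 12.7% of all genes. Nhp2, Ncl, Nop16, Polr1c, Pes1 and Npm1 kept unadjusted p-values under 0.05 with log2 fold changes of -0.66, -0.51, -0.58, -0.48, -0.46 and -0.41, while 6.13% of all genes were lower at that p, and the smallest adjusted p of the 40 was 0.175 in edgeR's test. Rrp12, Ddx21, Nop58 and Gar1, with estimates of -0.84 to -0.50 from all libraries, stood at 0.01, -0.08, 0.03 and 0.20. Mybbp1a reached 0.58 with an adjusted p of 0.175 in edgeR's test. The 6 that DESeq2 called lower with all 8 libraries, which include those of this fit, were Ncl, Nhp2, Nop16, Npm1, Pes1 and Polr1c, against 4.79% of all genes called lower, with adjusted p-values of 0.00862 for Ncl to 0.049 for Nop16.

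**Figure D5:**
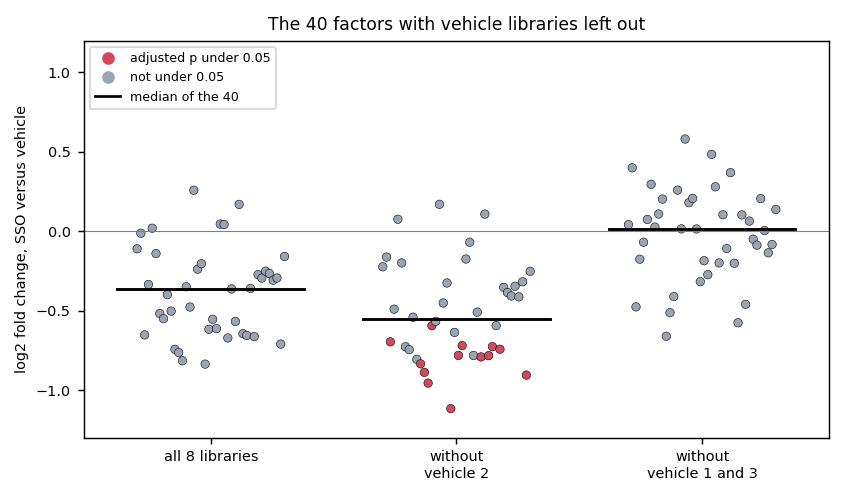
Log2 fold changes of the 40 factors, SSO over vehicle, fitted with all 8 libraries, without vehicle 2, and without vehicle 1 and vehicle 3; red points are called at an adjusted p under 0.05 and black lines are medians. The medians are -0.36, -0.55 and 0.01, with 0, 13 and 0 factors called. Of all genes 0.45%, 16.2% and 0.371% were called in these fits.

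The genes beside the 40 gave the following values under SSO, with none called by edgeR's test. Of other large-subunit factors, 39 of 44 lay below 0 with a median of -0.27. An unadjusted p under 0.05 was reached by 10, all lower, against 12.5% of all genes lower. Of other small-subunit factors, 29 of 39 lay below 0 with a median of -0.20, and medians were -0.12 for 11 polymerase I genes and -0.34 for 11 snoRNP assembly genes. The 81 cytosolic ribosomal protein genes had a median of 0.05, with 32 below 0, and 15 genes for the mitochondrial ribosome a median of -0.05. Myc had 8.21, 5.64, 7.70 and 7.04 CPM in SSO livers, against 17.8, 3.68, 27.7 and 12.4 CPM in vehicle livers. Vehicle 3 and vehicle 1 were highest and vehicle 2 the lowest of all 8, and the log2 fold change was -1.11 ± 0.47 with an adjusted p of 0.223 in edgeR's test. The other 11 genes of the MYC network were not called either, at log2 fold changes of -1.82 for Mxd3 to 0.93 for Mycl.

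Set against the promoter sites, the E-box was present in 5 of the 10 genes with a matched window among the 11 factors with an unadjusted p under 0.05 (Utp20, Wdr43, Tsr1, Nop2 and Pes1) and in 4 of the 25 among the others (Rrn3, Mybbp1a, Utp4 and Ltv1). Ncl, Nhp2, Polr1c, Nop16 and Ddx21 had none in their windows. The split rests on the fit with all 8 libraries. Without vehicle 1 and vehicle 3, Utp20, Wdr43, Tsr1 and Nop2 had unadjusted p-values of 0.215, 0.141, 0.4 and 0.324 in edgeR's test. Pes1 stayed lower at 0.0249, and Mybbp1a was higher at 0.00419. These counts are small and describe the windows only.

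Per kilobase of exon, the order of the factors was similar in the groups. Npm1 was highest, at 26.7 CPM per kb in HFD and 26.7 in chow livers, and 25.1 in SSO and 44.1 in vehicle livers. Nhp2 was next in both diet groups and in vehicle livers, at 24.6 in HFD, 24.3 in chow and 33.2 in vehicle livers, while Mybbp1a at 23.9 came before Nhp2 at 19.9 in SSO livers. Wdr12 and Rrp1b were the 2 lowest in all 4 groups, at 1.24 to 1.75 CPM per kb. Exon lengths here join all annotated transcripts, which lowers this measure for genes with long minor transcripts.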

How the data were processed

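RNA-seq of whole mouse liver was deposited by the authors as raw counts per Ensembl gene, in 1 table for the diet experiment and 1 for the inhibitor experiment. Tools credited in the submitters' processing notes are featureCounts 2.0.2, HISAT2 2.2.1, DESeq2 and Trim Galore 0.6.1, with GRCm38 (mm10) as the build and no order of steps. The annotation release, whether counting used strand, and how multi-mapping reads were handled were not given in the sources used here. A macrophage table was not used here.

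Columns were assigned to groups by their header letters and counted as replicate libraries. Libraries of a group differed by more than counting noise, so none was merged. Symbols were matched by Ensembl ID to GENCODE M21 for 55141 of 55487 genes. The members and gene lists were chosen with earlier results of these data known.

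Each table was fitted separately with edgeR 4.0.16 in R 4.3.3 (TMM scaling, filterByExpr, robust quasi-likelihood test, no covariate), with Benjamini-Hochberg adjustment over all genes tested, and calls required an adjusted p under 0.05. Library sizes for CPM were scaled by TMM, and log2 levels are log2(CPM + 0.5). The steps were run on simulated counts with the same spread setting for every gene and no shifts shared by the genes of a library. The vehicle libraries did shift in that way, so the simulation does not speak to them. A count of 0 allows up to 3 counts, or 0.0770 to 0.0922 CPM in the diet and 0.0817 to 0.136 CPM in the inhibitor libraries, for counting error only.

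Alternatives were library size alone, DESeq2's size factors, leaving out mitochondrially encoded genes, the tests of DESeq2 1.42.0 and limma 3.58.1 (voom), other low-count filters, the column number as a block, and leaving out libraries. The rule for factors given by library took 13 core genes, any called factor (there was none), and in each comparison the highest and lowest log2 fold change of each role. Utp4, Bysl, Wdr75, Heatr1, Wdr43, Tsr1, Ltv1, Rrp1b, Nop2 and Nop16 were added after their values were seen, and some that the rule took in 1 comparison are given in both.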

Additional observations from a re-analysis of the deposited data

Results flagged for a closer look

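Among 82 groups of 4 libraries examined, 3 held a library far from the other 3 of its group, where chance gives about 1 in 20. Nip7, a large-subunit assembly factor, was at 13.8 CPM in SSO 3 and at 11.9 to 12.1 CPM in the other SSO libraries. Nob1 was at 23.4 CPM in SSO 1 and at 19.3 to 19.8 CPM in the other SSO libraries. Rrn3 was at 13.7 CPM in vehicle 2 and at 23.1 to 23.6 CPM in the other vehicle libraries. Groups of 3 in the diet experiment were too small for this check.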

How the results depend on the processing

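In the diet experiment 0 of the 40 factors were called under every alternative run. Library size alone gave a median of 0.16. At an unadjusted p under 0.05 it gave 2 factors higher and 0 lower, against 0 and 1 in the main fit. Of all genes 3.67% were lower at that p with this scaling. Without a low-count filter 2 were lower, against 5.19% of all genes. Leaving out 1 library gave 0 to 1 higher (1 without chow 1 or chow 3) and 1 to 2 lower (2 without chow 2 or chow 3). Of all genes 4.71% to 9.23% were then lower at that p. The share of all genes higher at that p was not computed for the alternatives. Calls over all genes, 361 by edgeR, were 926 with DESeq2, 672 without a filter and 86 to 681 with 1 library left out (omitting HFD 1, HFD 2 or HFD 3 left 86, 174 or 132, omitting chow 2 left 184 and omitting chow 1 gave 681). Of 560 refitted values of single factors, 68 changed sign.

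Under SSO, 6 factors were called lower with DESeq2 and 0 to 13 with 1 library left out, the 13 without vehicle 2. At an unadjusted p under 0.05, 7 to 26 were lower with 1 library left out (7 without SSO 2, against 8.76% of all genes, and 26 without vehicle 2), against 11, and without vehicle 1 and vehicle 3, chosen after seeing the data, 6 were lower and 1, Mybbp1a, higher. Calls over all genes, 71 by edgeR, were 37 by library size alone, 1218 with DESeq2, 205 without a filter and 0 to 2646 with 1 library left out: 0 without vehicle 1 or any single SSO library, 16 without vehicle 3, 364 without vehicle 4 and 2646 without vehicle 2. Of 680 refitted values of single factors, 36 changed sign. The cause of these shifts was not tested.

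The column numbers did not pair the libraries: same-number correlations were -0.12 to 0.023 by diet and -0.0959 to 0.0502 under SSO, and only SSO 4 correlated best with its own number. With that number as a block, calls over all genes were 206 by diet and 47 under SSO. By diet 2 factors were lower at an unadjusted p under 0.05, against 6.15% of all genes. The medians of the 40 were -0.0033 by diet and -0.31 under SSO.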
